A study of Homo sapiens with 6 samples.

Results

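The comparison described here set K562 cells that lack the ultra-conserved element PAX6_Tarzan (PAX6_Ta KO) against Control K562 cells, across the genome and away from the element itself. Its members were the genes with enough reads to be tested, outside the 5 Mb on either side of PAX6_Ta and outside lists of heart genes, 20645 of the 20746 genes tested in the series. K562 is a human leukaemia line that grows in suspension and is labelled erythroleukemia. Ultra-conserved elements are non-coding stretches of DNA that have hardly changed between distant vertebrates, and many of them act on the transcription of genes. The question was which pathways and cell-state programmes differed between the edited line and Control.

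The series holds 2 libraries each of PAX6_Ta KO, of PBX3_Cl KO, an edited K562 line that lacks another ultra-conserved element (PBX3_Claudia), and of Control, which the labels give the genotype WT. For the knockouts, K562 cells were transfected with a plasmid carrying Cas9 and a pair of guides (dual-CRISPR-Cas9-U6-H1, pBP48), selected with puromycin and picked as single clones, and the deletions were checked by PCR and Sanger sequencing. All cells grew in RPMI medium with serum. The sources used here do not state that Control went through transfection, selection and cloning, nor whether the replicates of a knockout came from the same clone or from separate cultures. Loss of the element therefore cannot be told apart from the making of a clone, and p-values measure how far these libraries vary, which may be technical variation alone.

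The guides are printed because they define the deletion. They come from the study's table of guides, were found at these places in GRCh37, and carry the PAM, the bases next to the target that Cas9 needs, in capitals. Guide 1 lies on the reverse strand at chr11:31809917-31809939 and guide 2 on the forward strand at chr11:31811316-31811338.
guide 1 (U6): gctttctgtgcggttgtggaTGG
guide 2 (H1): caagtccattccttccccagTGG
Their cuts bound 1410 bp, from base 31809923 to base 31811332 of chromosome 11, around the 434 bp of PAX6_Ta. Counts per gene do not test whether this segment was lost.

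The 6 libraries held 45912044 to 60908470 counted reads, over 52088 entries. Levels are given as CPM, counts scaled to a common library size with TMM factors, which even out differences in composition between libraries. Differences are log2 fold changes ± standard error from 1 edgeR quasi-likelihood fit to the 6 libraries, with n = 2 libraries per group, and a gene is called at an adjusted p below 0.05. Every gene named below as called kept its call under each alternative in which it was tested unless the text says otherwise, and the same holds for each difference between the knockouts given as called. Where a called gene is given with its level in each library, the libraries of PAX6_Ta KO and of Control did not overlap. Median differences from Control were not level along the genome: the tested protein-coding genes of chromosome arm 7p had a median of 0.65 in PAX6_Ta KO and 0.58 in PBX3_Cl KO, and those of 11p 0.62 and 0.64. Arms 2p, 4q and 8p lay at -0.49, -0.49 and -0.48 in PAX6_Ta KO and at -0.02, -0.11 and 0.08 in PBX3_Cl KO. A fit with each arm's median taken out is therefore among the alternatives, and its value stands beside the calls that it ended. Whether the number of copies of these arms differs between the lines was not tested.

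K562 cells carry the BCR-ABL fusion kinase and resemble an early precursor of red cells and platelets: they make embryonic and fetal globins and depend on the erythroid transcription factors. These features were present in PAX6_Ta KO. GATA1, the master regulator of red cell genes, was at 277 and 219 in PAX6_Ta KO, 332 and 342 in PBX3_Cl KO and 303 and 253 CPM in Control. KLF1, which acts beside it, was at 291 and 224 in PAX6_Ta KO, 379 and 391 in PBX3_Cl KO and 306 and 238 CPM in Control. For both genes the libraries of PAX6_Ta KO and Control overlapped, while those of PBX3_Cl KO lay above them. Neither gene was called in PAX6_Ta KO against Control (log2 fold changes -0.17 and -0.08, edgeR adjusted p = 0.745 and 0.907). The transferrin receptor gene TFRC, the erythropoietin receptor gene EPOR and NFE2, another erythroid factor, were not called either, at log2 fold changes of 0.12, 0.18 and -0.16. Several markers of other cell types had at most 9 reads in each library. In PAX6_Ta KO, MS4A1 (B cells) had 0 reads in both libraries, CDH5 (endothelium) 0 in both, MPO (granulocytes) 1 and 0, CDH1 (epithelium) 2 and 0, PDGFRB (mesenchyme) 4 and 2 and SOX2 (pluripotent cells) 0 and 1. Other such markers, among them EPCAM and CD3E, had more, and some of these are given with their lists.

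Of the 20645 genes, 1469 were higher and 872 were lower in PAX6_Ta KO than in Control by edgeR, against 7.21% higher and 4.21% lower among all genes tested. The called genes that were higher had a median log2 fold change of 2.34 and those that were lower of -1.35, while the median of all members was -0.02. Changes beyond 3 on the log2 scale were found for 563 higher and 177 lower genes. Of the called genes, 784 higher and 313 lower kept their calls whichever library was left out and also with the replicate number as a block. Over all tested genes, 1496 were higher, and 927 without PAX6_Ta KO replicate 1, while 874 were lower, and 448 and 427 without PAX6_Ta KO replicate 1 or 2, 576 without Control replicate 1, 1384 and 1429 without PBX3_Cl KO replicate 1 or 2, and 1520 with the block.

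ENAH (ENSG00000154380, chromosome 1, bases 225674467 to 225840844), which encodes an actin regulator at cell edges and adhesions, had the smallest p among the genes that rose. It was at 112 and 104 in PAX6_Ta KO, 0.794 and 0.611 in PBX3_Cl KO and 0.117 and 0.238 CPM in Control. ENAH rose by 9.26 ± 0.33 on the log2 scale (edgeR, adjusted p = 2.7e-08). COBLL1, another gene of the actin cytoskeleton, was at 79 and 79.5 in PAX6_Ta KO, 0.386 and 0.546 in PBX3_Cl KO and 1.3 and 0.792 CPM in Control. COBLL1 rose by 6.23 ± 0.29 on the log2 scale (edgeR, adjusted p = 1.3e-07). PAK1, a kinase that Rac and Cdc42 switch on to reshape actin, was at 32.6 and 27.5 in PAX6_Ta KO, 24.2 and 20 in PBX3_Cl KO and 1.17 and 0.832 CPM in Control. PAK1 rose by 4.90 ± 0.27 on the log2 scale (edgeR, adjusted p = 4.0e-07). Of these, ENAH and COBLL1 were high in PAX6_Ta KO alone, whereas PAK1 was high in both knockouts and did not pass the test between them (0.44 ± 0.22, adjusted p = 0.258 by edgeR). EPB41L3, a protein that ties membrane proteins to actin and spectrin, was at 57.1 and 42.4 in PAX6_Ta KO, 0.0454 and 0.109 in PBX3_Cl KO and 1.2 and 0.851 CPM in Control. EPB41L3 rose by 5.59 ± 0.31 on the log2 scale (edgeR, adjusted p = 3.7e-07). EFS, a docking protein for Src kinases, was at 21.6 and 19.6 in PAX6_Ta KO, against 0.15 and 0.178 CPM in Control. EFS rose by 6.96 ± 0.36 on the log2 scale (edgeR, adjusted p = 2.3e-07). In PBX3_Cl KO it had 1 and 2 reads.

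The other genes that rose with the smallest p came from several classes. LIN28A, an RNA-binding protein of stem cells that blocks maturation of let-7 microRNAs, was at 106 and 102 in PAX6_Ta KO, 0.295 and 0.349 in PBX3_Cl KO and 4.68 and 3.5 CPM in Control. LIN28A rose by 4.66 ± 0.23 on the log2 scale (edgeR, adjusted p = 1.9e-07). It was called lower in PBX3_Cl KO than in Control, so that the knockouts stood on either side of Control (8.32 ± 0.30, adjusted p = 4.2e-08 between them). ADGRA3, an adhesion receptor, showed the same order, with 3109 and 3425 reads in PAX6_Ta KO, 0 and 2 in PBX3_Cl KO and 128 and 75 in Control. ADGRA3 rose by 5.16 ± 0.30 on the log2 scale (edgeR, adjusted p = 4.9e-07). AKR1B1, aldose reductase, was at 71.7 and 60.1 in PAX6_Ta KO, 0.635 and 0.458 in PBX3_Cl KO and 0.849 and 0.653 CPM in Control. AKR1B1 rose by 6.44 ± 0.28 on the log2 scale (edgeR, adjusted p = 8.2e-08). COL14A1, a collagen that coats collagen fibrils, was at 43.3 and 38.6 in PAX6_Ta KO, 6.01 and 3.75 in PBX3_Cl KO and 0.283 and 0.396 CPM in Control. COL14A1 rose by 6.91 ± 0.35 on the log2 scale (edgeR, adjusted p = 1.9e-07). The flavoprotein gene CYB5R2, the membrane protein gene ANO5 and SLC24A2, an exchanger of sodium, calcium and potassium, rose by 7.97, 6.27 and 5.77 on the log2 scale, and their PBX3_Cl KO libraries lay between those of PAX6_Ta KO and Control.

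ZNF521 (ENSG00000198795, chromosome 18, bases 22641888 to 22932154), a zinc finger factor of blood stem and progenitor cells, had the smallest p of the genes that fell. It was at 0.0416 and 0.095 in PAX6_Ta KO, 20.4 and 18.1 in PBX3_Cl KO and 55.6 and 51.8 CPM in Control. ZNF521 fell by 9.55 ± 0.35 on the log2 scale (edgeR, adjusted p = 2.7e-08), with 2 and 5 reads left. EYA1, a developmental coactivator and phosphatase, had 2 and 2 reads in PAX6_Ta KO, 2 and 1 in PBX3_Cl KO and 595 and 452 in Control. EYA1 fell by 7.80 ± 0.48 on the log2 scale (edgeR, adjusted p = 9.5e-07), and PBX3_Cl KO was low as well. ZNF521, in contrast, was lower in PAX6_Ta KO than in PBX3_Cl KO too (-8.07 ± 0.34, adjusted p = 4.9e-08).
Several of the others are signalling genes. ARHGAP4, a GTPase-activating protein of blood cells, was at 1.33 and 1.44 in PAX6_Ta KO, 13.2 and 12.1 in PBX3_Cl KO and 100.1 and 78.7 CPM in Control. ARHGAP4 fell by 6.01 ± 0.25 on the log2 scale (edgeR, adjusted p = 7.3e-08). PTPN7, a phosphatase that dampens MAP kinases in blood cells, was at 2.1 and 1.14 in PAX6_Ta KO, 0.817 and 0.48 in PBX3_Cl KO and 152 and 124 CPM in Control. PTPN7 fell by 6.41 ± 0.34 on the log2 scale (edgeR, adjusted p = 2.7e-07). TBC1D4, which holds back glucose transporter vesicles until insulin acts, was at 0.833 and 0.608 in PAX6_Ta KO, 86 and 80.5 in PBX3_Cl KO and 29.5 and 33.9 CPM in Control. TBC1D4 fell by 5.46 ± 0.26 on the log2 scale (edgeR, adjusted p = 1.3e-07). PTPN7 was thus low in both knockouts, while TBC1D4 was low in PAX6_Ta KO and high in PBX3_Cl KO (-6.85 ± 0.27, adjusted p = 4.9e-08 between them). PGR, the progesterone receptor, was at 0.312 and 0.266 in PAX6_Ta KO, 32.3 and 36.3 in PBX3_Cl KO and 16.8 and 27.6 CPM in Control. PGR fell by 6.25 ± 0.34 on the log2 scale (edgeR, adjusted p = 3.6e-07). UGT8, an enzyme of galactolipid synthesis, and ITPRIPL1 fell by 7.87 and 5.72 on the log2 scale, with 3 and 3 and 13 and 15 reads left in PAX6_Ta KO. MAGI1, a scaffold of cell junctions, HMGN5, a nucleosome-binding protein, IGSF10 and the pseudogene PTPRVP fell by 3.19, 3.69, 6.16 and 6.43, of which IGSF10 and PTPRVP were low in PBX3_Cl KO too, with 2 and 4 and 19 and 15 reads.

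**Figure D1:**
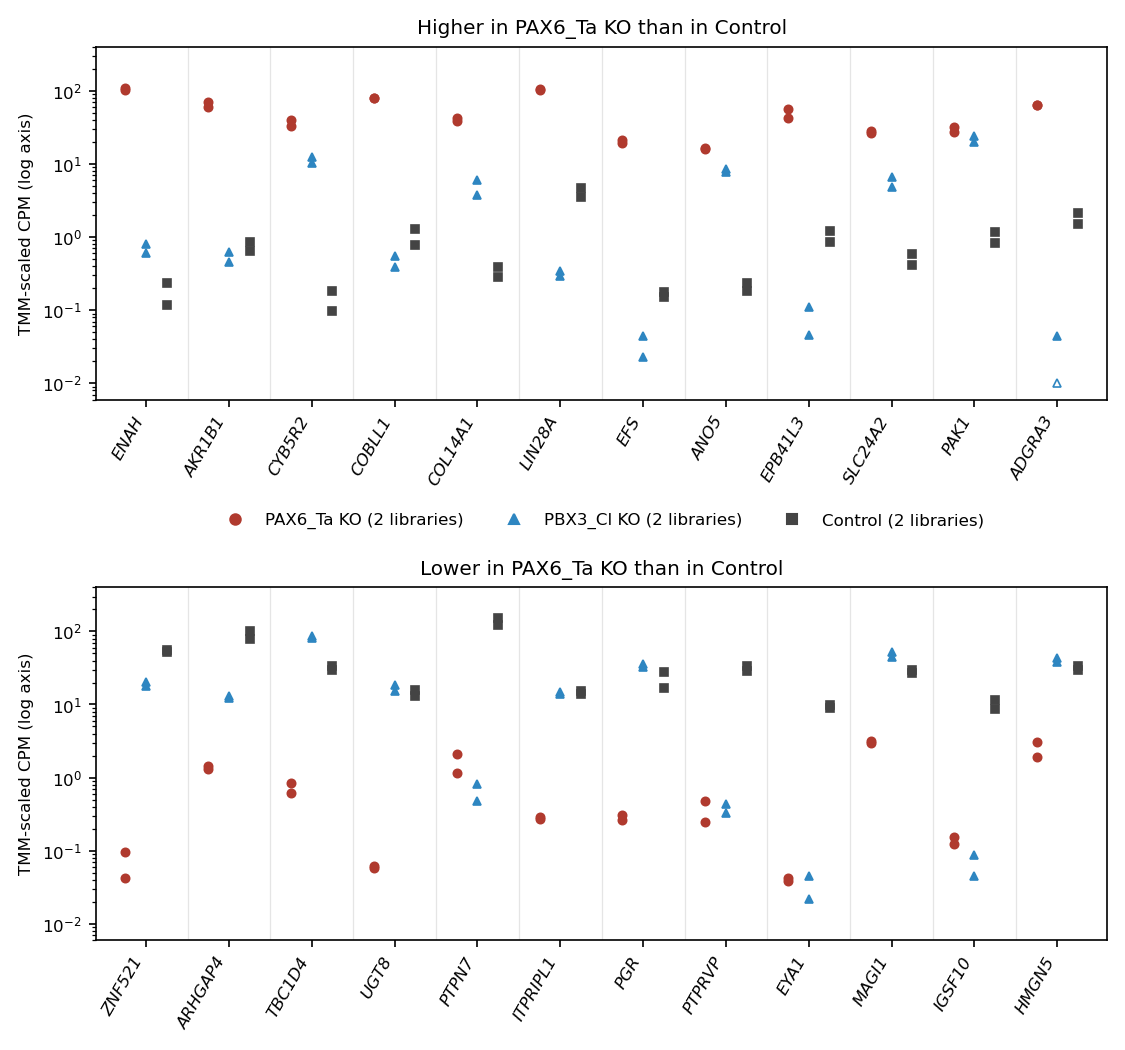
TMM-scaled CPM (y axis, log scale) of the 12 higher (upper panel) and 12 lower genes (lower panel) with the smallest p among those called in every fit with a library left out and with the replicate block, 1 point per library. PAX6_Ta KO (circles) stands apart from Control (squares) in each gene, and an open symbol at 0.01 marks a library with 0 reads. PBX3_Cl KO (triangles) lies near Control for some genes and near PAX6_Ta KO for others.

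To describe programmes, 57 lists of genes were counted. A list is given by how many of its tested members were called and by its median, beside 7.21% higher, 4.21% lower and a median of -0.02 over all tested genes, and these counts are descriptions and not tests of the lists. HOX genes are set aside here, since the filter sets their share in part, as described with them. The largest other shares called higher were those of globins, matrix proteases with inhibitors and further serpins, imprinted genes and the integrated stress response. Where leaving out a library, the replicate block or the arm medians moved a list's count by more than 1.5 times, the changed counts follow in brackets. Beyond the genes with the smallest p in each list, further members were named after their values were seen.

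Among the erythroid programmes, globin genes were higher or not called, and red cell membrane and late erythroid genes were called in both directions. Globin chains carry oxygen, and in development embryonic chains give way to fetal and then adult ones. Of 10 globin genes, 6 were higher and 0 lower in PAX6_Ta KO by edgeR (2 higher leaving out Control replicate 2, 3 higher leaving out PAX6_Ta KO replicate 1), with a median of 0.88 (0 lower also at p under 0.05 before adjustment and with DESeq2). HBD, a minor adult chain, was at 32.9 and 27.7 in PAX6_Ta KO, 13.9 and 16 in PBX3_Cl KO and 10.2 and 6.99 CPM in Control. HBD rose by 1.82 ± 0.24 on the log2 scale (edgeR, adjusted p = 0.00032). HBA2, an alpha chain, was at 745 and 598 in PAX6_Ta KO, 704 and 1081 in PBX3_Cl KO and 228 and 189 CPM in Control. HBA2 rose by 1.68 ± 0.26 on the log2 scale (edgeR, adjusted p = 0.00095). Of the globins, 1 (HBD) also differed between the knockouts (1.02 ± 0.23, adjusted p = 0.0129), though not without PAX6_Ta KO replicate 1 (adjusted p = 0.123). HBG2, a fetal chain, was at 2074 and 1789 in PAX6_Ta KO, against 941 and 861 CPM in Control. HBG2 rose by 1.10 ± 0.24 on the log2 scale (edgeR, adjusted p = 0.01). HBE1, an embryonic chain, was at 5318 and 4419 in PAX6_Ta KO, against 2617 and 2056 CPM in Control. HBE1 rose by 1.06 ± 0.27 on the log2 scale (edgeR, adjusted p = 0.0229). Both lie on 11p, and their calls were lost with the median of that arm taken out (adjusted p = 0.318 and 0.458), without Control replicate 2 (0.097 and 0.244) and without PAX6_Ta KO replicate 1 (0.0709 and 0.144), that of HBE1 also without Control replicate 1 (0.0545). The adult gene HBB was not called, with 22 and 28 reads in PAX6_Ta KO, 20 and 30 in PBX3_Cl KO and 36 and 15 in Control. HBA1 and HBA2, like HBG1 and HBG2, are near-identical, and the counting may have split reads between them.

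Of 36 tested red cell membrane and late erythroid genes, 5 were higher and 9 lower (3 higher leaving out Control replicate 2 or PAX6_Ta KO replicate 1, 5 lower with the arm medians taken out, 4 lower leaving out PAX6_Ta KO replicate 1, 3 lower leaving out PAX6_Ta KO replicate 2), with a median of -0.29. With the arm medians taken out, 6 were higher and 5 lower. SLC4A1, the anion exchanger of the red cell membrane, was at 21.5 and 14.2 in PAX6_Ta KO, 12.6 and 25.9 in PBX3_Cl KO and 3.16 and 1.37 CPM in Control. SLC4A1 rose by 2.97 ± 0.43 on the log2 scale (edgeR, adjusted p = 0.0006). AQP1, the red cell water channel, was at 9.6 and 7.98 in PAX6_Ta KO, 9.03 and 11 in PBX3_Cl KO and 2.78 and 0.752 CPM in Control. AQP1 rose by 2.30 ± 0.45 on the log2 scale (edgeR, adjusted p = 0.00525). Both lay above Control in each knockout library and were not called between the knockouts (adjusted p = 0.911 and 0.85). CA1, a carbonic anhydrase of mature red cells, was at 0.937 and 1.04 in PAX6_Ta KO, 9.48 and 11.4 in PBX3_Cl KO and 12 and 13 CPM in Control. CA1 fell by 3.65 ± 0.28 on the log2 scale (edgeR, adjusted p = 5.6e-06). It also differed between the knockouts (-3.40 ± 0.28, adjusted p = 7.1e-06). In bulk RNA, fewer cells of a type and less RNA per cell cannot be told apart.

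Blood transcription factors set the fate of stem and progenitor cells. Of 35 tested, 0 were higher by edgeR (2 at p under 0.05 before adjustment and 1 by DESeq2) and 6 were lower (2 higher with the replicate block, 10 lower with the replicate block). Beside ZNF521, MECOM, a factor that maintains blood stem cells, was at 24.6 and 25.2 in PAX6_Ta KO, 57.6 and 52.2 in PBX3_Cl KO and 65.3 and 59.6 CPM in Control. MECOM fell by 1.33 ± 0.19 on the log2 scale (edgeR, adjusted p = 0.00051). IKZF2, an Ikaros family factor, was at 1.33 and 1.23 in PAX6_Ta KO, 6.17 and 5.11 in PBX3_Cl KO and 4.66 and 4.04 CPM in Control. IKZF2 fell by 1.76 ± 0.31 on the log2 scale (edgeR, adjusted p = 0.00252). Both were lower than in PBX3_Cl KO as well (adjusted p = 0.00156 and 0.00072). FLI1, which drives platelet precursors, was at 0.104 and 0.038 in PAX6_Ta KO, 0.0907 and 0.109 in PBX3_Cl KO and 6.8 and 1.15 CPM in Control. FLI1 fell by 5.78 ± 0.87 on the log2 scale (edgeR, adjusted p = 0.00083). Its Control libraries lay far apart. The levels of GATA2, MYB and MYC, which keep precursor cells dividing, gave log2 fold changes of -0.20, -0.20 and -0.10 and were not called.

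Genes of megakaryocytes, the cells that shed platelets, were lower in part. Of 24 tested, 6 were lower and 3 higher (5 higher leaving out Control replicate 1, 1 higher leaving out Control replicate 2). ITGA2B, the platelet fibrinogen receptor chain, was at 4.06 and 2.49 in PAX6_Ta KO, 11 and 7.18 in PBX3_Cl KO and 53.8 and 16.4 CPM in Control. ITGA2B fell by 3.42 ± 0.48 on the log2 scale (edgeR, adjusted p = 0.00052). PPBP, a platelet chemokine, was at 0.125 and 0.038 in PAX6_Ta KO, against 23 and 1.37 CPM in Control. PPBP fell by 7.21 ± 1.21 on the log2 scale (edgeR, adjusted p = 0.00174). PLEK, a platelet kinase substrate, was at 0.312 and 0.323 in PAX6_Ta KO, against 13.1 and 1.72 CPM in Control. PLEK fell by 4.53 ± 0.79 on the log2 scale (edgeR, adjusted p = 0.00221). In these 3 genes Control replicate 1 held several times the level of Control replicate 2, and both lay above PAX6_Ta KO. SRGN, a proteoglycan of storage granules, was at 50.8 and 34.6 in PAX6_Ta KO, 157 and 93.7 in PBX3_Cl KO and 118 and 111 CPM in Control. SRGN fell by 1.42 ± 0.26 on the log2 scale (edgeR, adjusted p = 0.00359). P2RX1, a channel of platelets opened by ATP, went the other way, at 15.6 and 8.79 in PAX6_Ta KO, 13 and 6.64 in PBX3_Cl KO and 3.53 and 1.58 CPM in Control. P2RX1 rose by 2.25 ± 0.44 on the log2 scale (edgeR, adjusted p = 0.00465).

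Among genes of other blood lineages, the calls went both ways. Of 15 tested lymphoid genes 2 were higher and 2 lower (1 lower leaving out Control replicate 2 or PAX6_Ta KO replicate 1 or 2 and with the arm medians taken out). Of 21 surface genes of stem and progenitor cells 2 were higher and 2 lower (1 higher leaving out Control replicate 2 or PAX6_Ta KO replicate 1 and with the arm medians taken out, 4 higher leaving out Control replicate 1, 1 lower leaving out Control replicate 1 or PAX6_Ta KO replicate 1, 0 lower leaving out PAX6_Ta KO replicate 2). KIT, the receptor for stem cell factor, was at 16.4 and 15.8 in PAX6_Ta KO, 3.15 and 1.83 in PBX3_Cl KO and 2.28 and 1.19 CPM in Control. KIT rose by 3.20 ± 0.37 on the log2 scale (edgeR, adjusted p = 0.00011). It was also higher than in PBX3_Cl KO (2.69 ± 0.36, adjusted p = 0.00037). CD3G, a chain of the T cell receptor complex, was at 4.39 and 2.34 in PAX6_Ta KO, 1.41 and 0.568 in PBX3_Cl KO and 0.45 and 0.376 CPM in Control. CD3G rose by 3.01 ± 0.51 on the log2 scale (edgeR, adjusted p = 0.00197). ZAP70, a kinase behind that receptor, was at 1.71 and 1.58 in PAX6_Ta KO, 0.0907 and 0.327 in PBX3_Cl KO and 0.366 and 0.277 CPM in Control. ZAP70 rose by 2.34 ± 0.52 on the log2 scale (edgeR, adjusted p = 0.0111). Both lymphoid genes were also higher than in PBX3_Cl KO (adjusted p = 0.031 and 0.00405), CD3G not without PAX6_Ta KO replicate 1 or PBX3_Cl KO replicate 2 (0.266 and 0.118). The lower lymphoid genes were the factors LEF1, at a log2 fold change of -1.17, and EBF1, at -1.69. LEF1 lost its call with the arm medians taken out (adjusted p = 0.0559). EBF1 lost it with upper-quartile factors (0.0563), without Control replicate 2 (0.426) and without PAX6_Ta KO replicate 1 or 2 (0.124 and 0.199). The other called surface genes were CD151, which was higher (0.76), and CD99 and CD109, which were lower (-0.88 and -1.06). CD151 lost its call with the arm medians taken out and leaving out Control replicate 2 or PAX6_Ta KO replicate 1 (adjusted p = 0.83, 0.369 and 0.346). CD99 lost it leaving out Control replicate 1 or PAX6_Ta KO replicate 2 (0.153 and 0.188), and CD109 leaving out Control replicate 2 or PAX6_Ta KO replicate 1 or 2 (0.0669, 0.134 and 0.121). The defining T cell gene CD3E had 1 and 4 reads in PAX6_Ta KO, against 16 and 7 in Control. The summed CPM of the 35 lymphoid genes was 102 and 108 in PAX6_Ta KO, against 112 and 139 in Control.

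HOX genes of the HOXA and HOXD clusters had reads in PAX6_Ta KO and almost none elsewhere. HOX genes encode homeodomain factors that pattern the body axis and, in blood, are active in stem cells and many leukaemias, and they sit in 4 clusters (HOXA on 7p, HOXB on 17q, HOXC on 12q and HOXD on 2q) that Polycomb proteins keep shut as blocks. Summed over 10 of its genes, HOXA had 744 and 714 reads in PAX6_Ta KO, 15 and 16 in PBX3_Cl KO and 2 and 1 in Control. HOXD, with 9 genes, had 499 and 494 reads in PAX6_Ta KO, 3 and 0 in PBX3_Cl KO and 9 and 3 in Control. Both clusters were thus near silent in Control and in the other knockout. HOXB had 28395 and 25028 reads in PAX6_Ta KO, 22475 and 25987 in PBX3_Cl KO and 35408 and 23818 in Control, and HOXC 1438 and 1348, 829 and 1430, and 2139 and 1623 in the same order, and for both clusters the libraries of PAX6_Ta KO did not lie apart from the rest.

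Reads were spread over the HOXA cluster, from HOXA2 to HOXA13. HOXA5 (ENSG00000106004, chromosome 7, bases 27180671 to 27183300) had 250 and 225 reads in PAX6_Ta KO, 5 and 0 in PBX3_Cl KO and 0 and 0 in Control, at least 174-fold higher than Control against a floor of 3 reads over the group. HOXA11 had 110 and 99 reads in PAX6_Ta KO, 0 and 0 in PBX3_Cl KO and 0 and 0 in Control, at least 76.5-fold higher. HOXA3 was the member with the most reads in PBX3_Cl KO, with 156 and 204 reads in PAX6_Ta KO, 5 and 14 in PBX3_Cl KO and 2 and 1 in Control, a ratio to Control of 132 (95% interval 44.7 to 642). HOXA6, HOXA2, HOXA10 and HOXA9 had 101 and 83, 36 and 36, 41 and 23, and 38 and 25 reads in PAX6_Ta KO and 0 in Control, at least 67.3, 26.3, 23.4 and 23.1 times higher. HOXA4, HOXA7 and HOXA13 had too few reads to be tested, 4 and 5, 3 and 3, and 5 and 11 in PAX6_Ta KO, and 0 in the other 4 libraries. The median of the genes of 7p was 0.65 on the log2 scale.

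In the HOXD cluster most reads were those of HOXD13, with fewer in HOXD3, HOXD4 and HOXD8. HOXD13, which patterns the limb ends, had 351 and 364 reads in PAX6_Ta KO, 0 and 0 in PBX3_Cl KO and 2 and 0 in Control, a ratio to Control of 392 (95% interval 108 to 3247). HOXD3, toward the other end, had 52 and 54 reads in PAX6_Ta KO, 0 and 0 in PBX3_Cl KO and 1 and 0 in Control. Its ratio to Control was 116 (95% interval 20.4 to 4639). HOXD4 had 48 and 52 reads in PAX6_Ta KO, 0 and 0 in PBX3_Cl KO and 0 and 0 in Control (at least 36.6-fold higher). HOXD1, the last gene at that end, had 5 and 0 reads in PAX6_Ta KO. Between HOXD4 and HOXD13, HOXD9 to HOXD12 had 0 to 6 reads in each PAX6_Ta KO library. HOXD8, also between them, had 37 and 15 reads in PAX6_Ta KO, 3 and 0 in PBX3_Cl KO and 2 and 3 in Control. HOXD8 rose by 3.46 ± 0.87 on the log2 scale (edgeR, adjusted p = 0.0218). This call was lost without PAX6_Ta KO replicate 1 or Control replicate 1 (adjusted p = 0.271 and 0.0676 by edgeR). In the HOXB cluster 1 gene was called, HOXB13, with 16 and 13 reads in PAX6_Ta KO, 0 and 3 in PBX3_Cl KO and 1 and 2 in Control, a ratio to Control of 10.6 (95% interval 3.29 to 54.4). Its call was lost with upper-quartile factors (adjusted p = 0.051), without Control replicate 1 or 2 (0.214 and 0.091) and without PAX6_Ta KO replicate 1 or 2 (0.211 and 0.0895).
Of 39 HOX genes, 27 passed the filter on low counts and 13 were called higher, 11 by DESeq2, and 0 lower by edgeR or DESeq2 (1 at p under 0.05 before adjustment). The HOXA and HOXD members passed that filter through PAX6_Ta KO and so had to differ, which leaves the reads and not the count as the description. DESeq2 did not call HOXA10 and HOXB13 (adjusted p = 0.406 and 0.119). Against PBX3_Cl KO, 12 HOX genes were higher and 0 lower by edgeR, where 5.26% of all tested genes were higher and 6.71% lower. The filter sets this count as well, since HOXA and HOXD members had few or no reads in PBX3_Cl KO. It is therefore no result about these genes. HOX genes overlap antisense transcripts, and the sources do not give the strand setting of the counting, so reads of both strands may be joined.

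**Figure D2:**
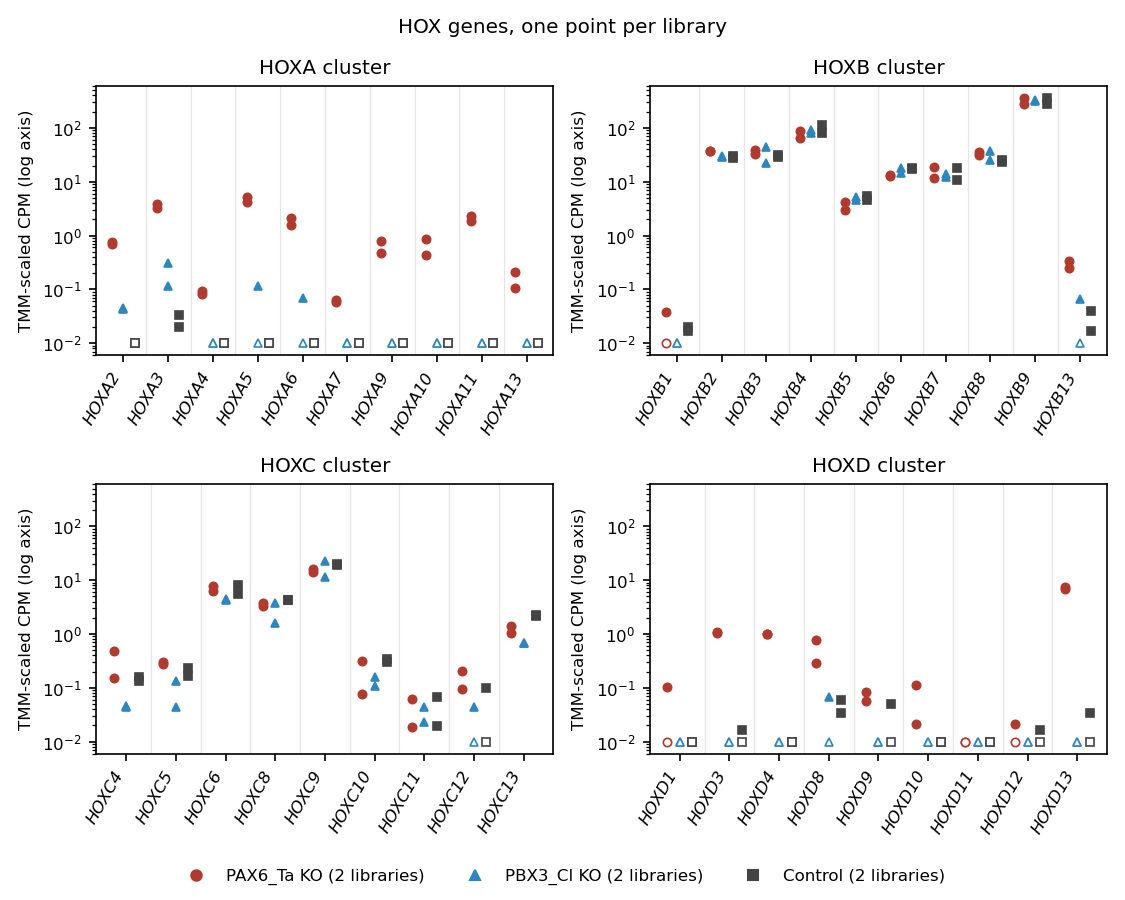
TMM-scaled CPM (y axis, log scale) of 38 genes of the 4 HOX clusters in order of number, 1 point per library, for PAX6_Ta KO (circles), PBX3_Cl KO (triangles) and Control (squares), with open symbols at 0.01 for 0 reads. HOXA and HOXD genes have reads in PAX6_Ta KO, such as 250 and 225 reads of HOXA5, and few or none in the other groups, whereas in the HOXB and HOXC clusters 1 gene, HOXB13, was called.

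Genes of Polycomb and Trithorax proteins, counted together as 1 list, and of proteins that place, read or remove DNA methylation were mostly not called. Of 44 Polycomb and Trithorax genes, 0 were higher by edgeR (0 also at p under 0.05 before adjustment and with DESeq2) and 1 was lower (4 lower leaving out PBX3_Cl KO replicate 1 or 2 and with the replicate block). CBX2, a Polycomb subunit that compacts chromatin, was at 86.7 and 84.9 in PAX6_Ta KO, 162 and 175 in PBX3_Cl KO and 181 and 158 CPM in Control. CBX2 fell by 0.98 ± 0.19 on the log2 scale (edgeR, adjusted p = 0.00438). EZH2, which places the H3K27me3 mark, was at 88.8 and 90 in PAX6_Ta KO, 162 and 173 in PBX3_Cl KO and 135 and 131 CPM in Control. This did not pass the test (log2 fold change -0.58 ± 0.18, adjusted p = 0.0652) and passed with the block (adjusted p = 0.0178). Its difference from PBX3_Cl KO was called (-0.90 ± 0.18, adjusted p = 0.00643), but not with the arm medians taken out (adjusted p = 0.396) nor without PAX6_Ta KO replicate 1 or 2 (0.0798 and 0.0748). Of 17 tested genes of DNA methylation, 1 (5.88%) was higher and 2 (11.8%) were lower, beside 7.21% and 4.21% of all tested genes. DNMT3A, a methyltransferase that sets new methylation, was at 24 and 17 in PAX6_Ta KO, 13.9 and 9.8 in PBX3_Cl KO and 5.3 and 4.55 CPM in Control. DNMT3A rose by 2.06 ± 0.27 on the log2 scale (edgeR, adjusted p = 0.00032). TET1, an enzyme that removes it, was at 73.5 and 69 in PAX6_Ta KO, 107 and 83.6 in PBX3_Cl KO and 172 and 182 CPM in Control. TET1 fell by 1.31 ± 0.20 on the log2 scale (edgeR, adjusted p = 0.00084). ZBTB38, a reader of methylated DNA, was lower too, at 14.4 and 12 in PAX6_Ta KO, 63.4 and 43.7 in PBX3_Cl KO and 83.7 and 67.7 CPM in Control. ZBTB38 fell by 2.52 ± 0.24 on the log2 scale (edgeR, adjusted p = 2.3e-05).

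Genes whose silence is set by parent of origin, or that are kept for the germ line, also moved. Of 23 tested imprinted genes, 8 were higher and 1 lower (median 0.40). H19, a long RNA made from the maternal copy, was at 429.8 and 216 in PAX6_Ta KO, 3.11 and 2.07 in PBX3_Cl KO and 17.2 and 27.4 CPM in Control. H19 rose by 3.86 ± 0.36 on the log2 scale (edgeR, adjusted p = 1.9e-05). DLK1, a fetal growth regulator, was at 109.6 and 95.3 in PAX6_Ta KO, 0.522 and 0.415 in PBX3_Cl KO and 15.2 and 32.4 CPM in Control. DLK1 rose by 2.11 ± 0.30 on the log2 scale (edgeR, adjusted p = 0.00055). Both genes were low in PBX3_Cl KO, so that the knockouts stood on either side of Control (6.96 ± 0.42, adjusted p = 6.6e-07 for H19 and 7.77 ± 0.41, adjusted p = 2.7e-07 for DLK1). NDN, a growth suppressor of the Prader-Willi region, was at 11.4 and 7.16 in PAX6_Ta KO, 1.93 and 1.35 in PBX3_Cl KO and 0.949 and 0.772 CPM in Control. NDN rose by 3.42 ± 0.37 on the log2 scale (edgeR, adjusted p = 6.8e-05). NAP1L5 was at 0.125 and 0.133 in PAX6_Ta KO, 4.51 and 3.65 in PBX3_Cl KO and 5.55 and 4.95 CPM in Control. NAP1L5 fell by 5.32 ± 0.41 on the log2 scale (edgeR, adjusted p = 5.6e-06). The neighbours IGF2 and MEG3 had too few reads to be tested, with 1 and 1 reads in PAX6_Ta KO, 1 and 2 in PBX3_Cl KO and 0 and 0 in Control of IGF2 and 9 and 13 reads in PAX6_Ta KO, 0 and 1 in PBX3_Cl KO and 8 and 1 in Control of MEG3.

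Of 15 tested genes of pluripotent and germ cells, 4 were higher and 3 lower (1 lower leaving out PAX6_Ta KO replicate 1). Beside LIN28A, the meiotic axis gene SYCP2 was at 3.16 and 3.38 in PAX6_Ta KO, 0.408 and 0.611 in PBX3_Cl KO and 0.416 and 0.337 CPM in Control. SYCP2 rose by 3.11 ± 0.41 on the log2 scale (edgeR, adjusted p = 0.00033). DPPA4, a chromatin protein of early embryos, had 38 and 42 reads in PAX6_Ta KO, 0 and 1 in PBX3_Cl KO and 1 and 2 in Control, a ratio to Control of 29.3 (95% interval 9.66 to 145). PIWIL4, which guards germ cells against transposons, was lower, at 8.08 and 6.32 in PAX6_Ta KO, 31.4 and 21.7 in PBX3_Cl KO and 38.9 and 42.2 CPM in Control. PIWIL4 fell by 2.49 ± 0.24 on the log2 scale (edgeR, adjusted p = 2.7e-05). SOX2 and NANOG had at most 1 read in each library. Cancer-testis antigens are X-linked in the main and silent outside the testis. Their called members went both ways, while most of those tested lay below 0. MAGEA1 was at 25 and 16.8 in PAX6_Ta KO, 57.9 and 43.2 in PBX3_Cl KO and 5.3 and 4.14 CPM in Control. MAGEA1 rose by 2.14 ± 0.26 on the log2 scale (edgeR, adjusted p = 0.00017). PAGE1 was at 0.541 and 0.513 in PAX6_Ta KO, 9.69 and 5.35 in PBX3_Cl KO and 6.98 and 7.15 CPM in Control. PAGE1 fell by 3.74 ± 0.38 on the log2 scale (edgeR, adjusted p = 3.6e-05). Near-identical relatives may share reads with both. Of 17 tested, 2 were higher and 3 lower (10 lower with the replicate block, 5 lower leaving out Control replicate 2, 6 lower leaving out PBX3_Cl KO replicate 1 or 2). Their median was -0.55, with 4 of 17 above 0. By edgeR at p under 0.05 before adjustment, 3 were higher and 10 lower.

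Part of the genes of the integrated stress response rose in PAX6_Ta KO, and in those 14 genes the PBX3_Cl KO libraries also lay above the shared Control. When amino acids run short or the endoplasmic reticulum is stressed, kinases phosphorylate eIF2, general translation drops and the factor ATF4 switches on genes for making and importing amino acids. In this list 14 of 42 tested genes were higher and 2 lower (9 higher leaving out PAX6_Ta KO replicate 1, 0 lower leaving out Control replicate 1 or 2 or PAX6_Ta KO replicate 1 or 2 and with the arm medians taken out), with a median of 0.42. The enzymes of serine synthesis rose: PHGDH, the first, was at 232 and 140.0 in PAX6_Ta KO, 96.9 and 103 in PBX3_Cl KO and 10.7 and 4.87 CPM in Control. PHGDH rose by 4.57 ± 0.37 on the log2 scale (edgeR, adjusted p = 7.3e-06). PSAT1, the second, was at 225 and 157 in PAX6_Ta KO, 166 and 132 in PBX3_Cl KO and 62.6 and 60.5 CPM in Control. PSAT1 rose by 1.63 ± 0.23 on the log2 scale (edgeR, adjusted p = 0.00046). PSPH, the last, was at 50.4 and 38.4 in PAX6_Ta KO, 39.9 and 32.1 in PBX3_Cl KO and 18.2 and 17.3 CPM in Control. PSPH rose by 1.32 ± 0.21 on the log2 scale (edgeR, adjusted p = 0.00134). PSPH lies on 7p and lost its call with the arm's median taken out (adjusted p = 0.0715). ALDH1L2, of mitochondrial folate metabolism, was at 31 and 20.7 in PAX6_Ta KO, 58.6 and 62.7 in PBX3_Cl KO and 3.5 and 2.46 CPM in Control. ALDH1L2 rose by 3.11 ± 0.26 on the log2 scale (edgeR, adjusted p = 1.0e-05). In these 4 genes both knockouts lay above Control, and ALDH1L2 was higher in PBX3_Cl KO than in PAX6_Ta KO (-1.23 ± 0.24, adjusted p = 0.0051), though not without PAX6_Ta KO replicate 2 (adjusted p = 0.0689).

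Targets outside serine synthesis rose as well. STC2, a secreted stress glycoprotein, was at 40.7 and 27.1 in PAX6_Ta KO, 40.9 and 40.8 in PBX3_Cl KO and 1.38 and 1.49 CPM in Control. STC2 rose by 4.56 ± 0.27 on the log2 scale (edgeR, adjusted p = 5.9e-07). CHAC1, which breaks down glutathione, was at 42.1 and 21.2 in PAX6_Ta KO, 37.7 and 39.8 in PBX3_Cl KO and 5.93 and 3.54 CPM in Control. CHAC1 rose by 2.74 ± 0.33 on the log2 scale (edgeR, adjusted p = 0.00016). GDF15, a stress hormone of the TGF-beta family, was at 259 and 201 in PAX6_Ta KO, 159 and 133 in PBX3_Cl KO and 48.2 and 22.2 CPM in Control. GDF15 rose by 2.71 ± 0.32 on the log2 scale (edgeR, adjusted p = 0.00013). The knockouts were not called apart in these 3 genes (adjusted p = 0.527, 0.643 and 0.206). ASNS, which makes asparagine, was at 234 and 163 in PAX6_Ta KO, 235 and 167 in PBX3_Cl KO and 82 and 96.3 CPM in Control. ASNS rose by 1.16 ± 0.24 on the log2 scale (edgeR, adjusted p = 0.00733). This call was lost without PAX6_Ta KO replicate 1 (adjusted p = 0.0869). JDP2, a partner of AP-1 factors, stood out from the rest: it had 571 and 349 reads in PAX6_Ta KO, 43 and 62 in PBX3_Cl KO and 0 and 1 in Control, a ratio to Control of 1010.1 (95% interval 181 to 39938), and its level also exceeded that of PBX3_Cl KO (2.99 ± 0.41, adjusted p = 0.00041). ATF4 itself was not called, at 393 and 275 in PAX6_Ta KO, 380.2 and 362 in PBX3_Cl KO and 332 and 249 CPM in Control (log2 fold change 0.20 ± 0.24, adjusted p = 0.724). Nor were DDIT3 (log2 fold change 0.54 ± 0.26) and TRIB3 (log2 fold change 0.90 ± 0.27) called, though TRIB3 passed with the replicate block (adjusted p = 0.00931). The lower members were the eIF2 kinases EIF2AK3 and EIF2AK2 on 2p, at 5.5 and 6.08 in PAX6_Ta KO, against 11.8 and 11.4 CPM in Control, and at 22.1 and 20.6 in PAX6_Ta KO, against 35.1 and 35.3 CPM in Control. They lost their calls with the arm's median taken out (adjusted p = 0.257 and 0.652) and in each fit without a library of either group (adjusted p from 0.0538 to 0.265).

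ATF4 binds joint C/EBP-ATF elements, and the promoters of the list were searched for the letters TGATGNAA on either strand, in the 250 bases before the start of transcription (RefSeq, GRCh38.p14). The promoters of the 2 higher genes that hold it, CHAC1 on chromosome 15 and ASNS on chromosome 7, are printed, as 120 bases with the element in capitals.
CHAC1: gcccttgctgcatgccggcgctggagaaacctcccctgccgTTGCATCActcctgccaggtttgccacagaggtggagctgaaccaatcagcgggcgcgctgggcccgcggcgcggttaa
ASNS: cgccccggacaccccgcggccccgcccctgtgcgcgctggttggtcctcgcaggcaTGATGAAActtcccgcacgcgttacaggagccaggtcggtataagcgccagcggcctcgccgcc
The CHAC1 stretch runs from 250 to 131 bases before the start, with the element on the reverse strand, and the ASNS stretch from 124 to 5 bases before it, with the element on the forward strand. Of the 42 tested members, 34 had a promoter in the tables, and 3 of these held the letters: 2 of 10 higher, 0 of 2 lower and 1 of 22 not called. Of all 27305 promoters of the same length, 870 (3.19%) held them. A match is a description and not a binding site.

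**Figure D3:**
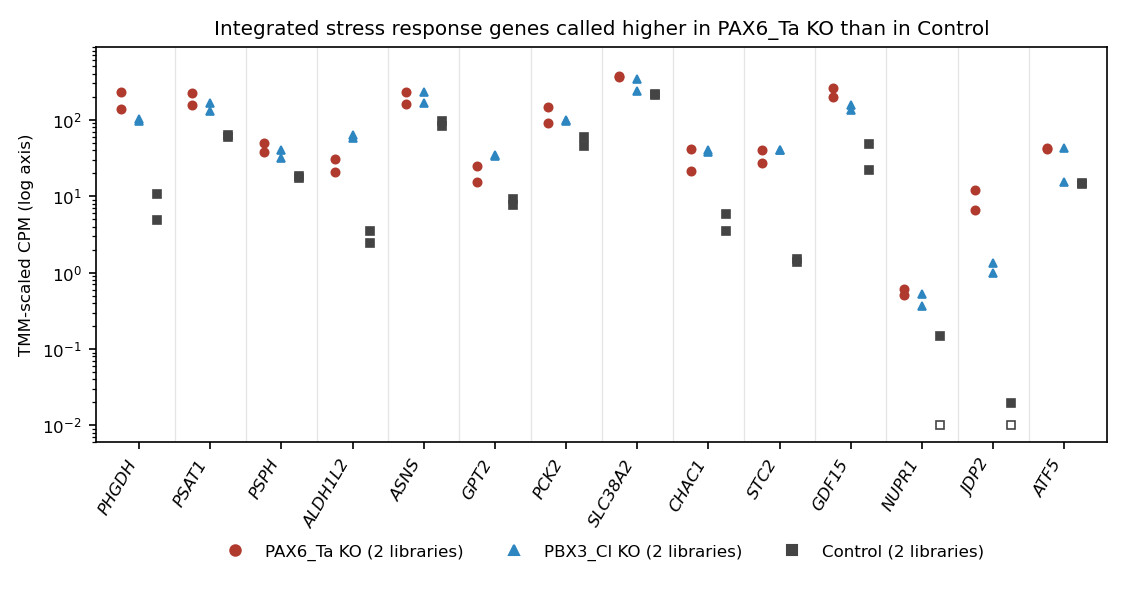
TMM-scaled CPM (y axis, log scale) of the 14 genes of the integrated stress response called higher in PAX6_Ta KO, 1 point per library, for PAX6_Ta KO (circles), PBX3_Cl KO (triangles) and Control (squares), with open symbols at 0.01 for 0 reads. PBX3_Cl KO lies above Control in each of these genes, and JDP2, with 43 and 62 reads in PBX3_Cl KO and 571 and 349 in PAX6_Ta KO, sets the knockouts apart.

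Genes of oxidative stress and of the NRF2 response rose in part. NRF2, encoded by NFE2L2, drives defence against oxidants. Of 53 tested genes of a mixed list of oxidative stress and NRF2, 12 were higher and 0 lower by edgeR. At p under 0.05 before adjustment 5 were lower, and 0 with DESeq2. With the replicate block 3 were lower, and the number lower also moved on leaving out either PBX3_Cl KO replicate. NFE2L2 was at 169 and 159.8 in PAX6_Ta KO, 97.9 and 76.4 in PBX3_Cl KO and 81.1 and 73 CPM in Control. NFE2L2 rose by 1.09 ± 0.20 on the log2 scale (edgeR, adjusted p = 0.00305). AKR1C2, an aldo-keto reductase, was at 91.6 and 63.8 in PAX6_Ta KO, 43.5 and 27.6 in PBX3_Cl KO and 32 and 20.8 CPM in Control. AKR1C2 rose by 1.56 ± 0.28 on the log2 scale (edgeR, adjusted p = 0.00297). ME1, malic enzyme, which makes NADPH, was at 28.9 and 30.9 in PAX6_Ta KO, 21.8 and 14.8 in PBX3_Cl KO and 9.91 and 13.9 CPM in Control. ME1 rose by 1.33 ± 0.25 on the log2 scale (edgeR, adjusted p = 0.00359). OSGIN1, which responds to oxidants, rose by 1.68 and TXNRD3, a thioredoxin reductase, by 3.78. The classical targets NQO1, GCLM and TXNRD1 were not called (log2 fold changes 0.49, 0.45 and -0.05), and NQO1 passed with the block (adjusted p = 0.0455).
Among 19 aminoacyl tRNA synthetases, WARS1, for tryptophan, was at 368 and 273 in PAX6_Ta KO, 199 and 169 in PBX3_Cl KO and 94.4 and 119.8 CPM in Control. WARS1 rose by 1.58 ± 0.23 on the log2 scale (edgeR, adjusted p = 0.00059). WARS1 and CARS1, on 11p, were the 2 called (1 higher leaving out Control replicate 2 or PAX6_Ta KO replicate 1 and with the arm medians taken out).

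Genes of the extracellular matrix and of adhesion to it were higher more often than lower. Of 40 tested collagens and laminins, 10 were higher and 3 lower (median 0.33). COL15A1, a basement membrane collagen, was at 62.6 and 28.5 in PAX6_Ta KO, 25.4 and 19.9 in PBX3_Cl KO and 1.18 and 1.6 CPM in Control. COL15A1 rose by 5.03 ± 0.38 on the log2 scale (edgeR, adjusted p = 4.9e-06). COL1A1, a chain of fibrillar collagen, was at 4.66 and 3.93 in PAX6_Ta KO, 0.181 and 0.48 in PBX3_Cl KO and 0.133 and 0.139 CPM in Control. COL1A1 rose by 4.96 ± 0.52 on the log2 scale (edgeR, adjusted p = 4.9e-05). LAMC1, a laminin chain, was at 6.83 and 3.74 in PAX6_Ta KO, 1.02 and 0.808 in PBX3_Cl KO and 0.233 and 0.317 CPM in Control. LAMC1 rose by 4.26 ± 0.46 on the log2 scale (edgeR, adjusted p = 6.0e-05). COL1A2, the partner chain of COL1A1, went the other way, at 17.8 and 18.8 in PAX6_Ta KO, 1.38 and 1.7 in PBX3_Cl KO and 48.7 and 133 CPM in Control. COL1A2 fell by 2.31 ± 0.36 on the log2 scale (edgeR, adjusted p = 0.00108). LAMB1, a laminin chain, was at 94.6 and 93 in PAX6_Ta KO, 4.88 and 6.05 in PBX3_Cl KO and 41.6 and 41.3 CPM in Control. LAMB1 rose by 1.18 ± 0.19 on the log2 scale (edgeR, adjusted p = 0.00138). COL4A2, a collagen of the basement membrane, was at 18.1 and 13.9 in PAX6_Ta KO, 1.27 and 1.05 in PBX3_Cl KO and 5.58 and 3.41 CPM in Control. COL4A2 rose by 1.83 ± 0.30 on the log2 scale (edgeR, adjusted p = 0.00166). These 2 genes were high in PAX6_Ta KO and low in PBX3_Cl KO (4.10 ± 0.22, adjusted p = 2.5e-07 for LAMB1 and 3.78 ± 0.34, adjusted p = 1.4e-05 for COL4A2 between the knockouts). COL4A5 ran the other way round, at 0.77 and 0.456 in PAX6_Ta KO, 12.8 and 14.2 in PBX3_Cl KO and 3.43 and 3.68 CPM in Control. COL4A5 fell by 2.54 ± 0.33 on the log2 scale (edgeR, adjusted p = 0.00028).

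Among fibroblast and mesenchymal genes, of which 5 of 24 were higher and 3 lower, VIM, the intermediate filament vimentin, was at 412 and 398 in PAX6_Ta KO, 129.8 and 73.5 in PBX3_Cl KO and 102 and 157 CPM in Control. VIM rose by 1.65 ± 0.29 on the log2 scale (edgeR, adjusted p = 0.00221). SPARC, a collagen-binding matrix protein, was at 316 and 223 in PAX6_Ta KO, 52.6 and 29.3 in PBX3_Cl KO and 66.1 and 44.1 CPM in Control. SPARC rose by 2.29 ± 0.31 on the log2 scale (edgeR, adjusted p = 0.00034). Both were higher than in PBX3_Cl KO (1.99 ± 0.29 and 2.72 ± 0.31, adjusted p = 0.00063 and 0.0001). TNC, tenascin C, fell, at 0.0208 and 0.057 in PAX6_Ta KO, against 9.98 and 3.62 CPM in Control. TNC fell by 7.34 ± 0.72 on the log2 scale (edgeR, adjusted p = 3.1e-05). The summed CPM of the 37 genes, tested or not and without TMM factors, was 979 and 978 in PAX6_Ta KO, against 504 and 655 in Control. VIM and SPARC held most of the sums in PAX6_Ta KO. The median log2 fold change of the 24 tested genes was -0.035, with 11 of them above 0. The defining genes LUM (0 reads in each library) and PDGFRB were at or near 0. Whether other cells had a part in these results was not tested. Of 28 epithelial genes, 5 were higher and 2 lower (3 higher leaving out Control replicate 2, 2 higher leaving out PAX6_Ta KO replicate 1, 4 lower with the replicate block, 1 lower leaving out PAX6_Ta KO replicate 2), with TP63, a factor of stratified epithelia, at 5.41 and 5.6 in PAX6_Ta KO, 0.272 and 0.262 in PBX3_Cl KO and 0.3 and 0.0792 CPM in Control. TP63 rose by 4.80 ± 0.51 on the log2 scale (edgeR, adjusted p = 5.6e-05). EPCAM, an adhesion molecule, was at 3.66 and 2.13 in PAX6_Ta KO, 26.8 and 21.9 in PBX3_Cl KO and 42.3 and 45.5 CPM in Control. EPCAM fell by 3.92 ± 0.28 on the log2 scale (edgeR, adjusted p = 3.1e-06). The keratin genes KRT18 and KRT19 were called against Control too, and both lost their calls without PAX6_Ta KO replicate 1, among other fits. The CPM of the 54 epithelial genes was also summed, here without TMM factors. The sums were 3428 and 2867 in PAX6_Ta KO, 2307 and 2060 in PBX3_Cl KO and 2077 and 1837 in Control.

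A list of proteases that cut the matrix and their inhibitors also holds serpins with other roles, such as SERPINB9 and SERPINH1. In this list more genes were higher than lower. Of 44 tested, 16 were higher and 4 lower (9 higher leaving out PAX6_Ta KO replicate 1). TIMP3, an inhibitor, which is bound to the matrix, was at 7.06 and 5.58 in PAX6_Ta KO, 0.113 and 0.0218 in PBX3_Cl KO and 0.0833 and 0.0198 CPM in Control. TIMP3 rose by 6.81 ± 0.61 on the log2 scale (edgeR, adjusted p = 1.4e-05). TIMP1 was at 197 and 126 in PAX6_Ta KO, 134 and 92 in PBX3_Cl KO and 42.8 and 50.7 CPM in Control. TIMP1 rose by 1.79 ± 0.26 on the log2 scale (edgeR, adjusted p = 0.00063). SERPINB9, which protects cells from granzyme B, was at 269 and 259 in PAX6_Ta KO, 107 and 49.9 in PBX3_Cl KO and 60.4 and 69.1 CPM in Control. SERPINB9 rose by 2.03 ± 0.30 on the log2 scale (edgeR, adjusted p = 0.00072). SERPINH1, the collagen chaperone, was at 486 and 370.3 in PAX6_Ta KO, 232 and 235 in PBX3_Cl KO and 174 and 177 CPM in Control. SERPINH1 rose by 1.29 ± 0.21 on the log2 scale (edgeR, adjusted p = 0.00145). TIMP3 was near 0 in PBX3_Cl KO and in Control alike, and the difference between the knockouts was called (6.51 ± 0.61, adjusted p = 1.9e-05). Among the proteases, ADAMTS10 rose by 4.18 on the log2 scale, whereas MMP17, a membrane protease, fell, at 2.46 and 2.15 in PAX6_Ta KO, 7.42 and 5.76 in PBX3_Cl KO and 12.6 and 13.3 CPM in Control. MMP17 fell by 2.49 ± 0.27 on the log2 scale (edgeR, adjusted p = 7.4e-05).

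Integrins join the matrix to actin. Of 44 tested genes of integrins and focal adhesions, 9 were higher and 1 lower (15 higher with the replicate block, 14 higher leaving out PBX3_Cl KO replicate 2, 0 lower leaving out Control replicate 1 or 2 or PAX6_Ta KO replicate 1 or 2). ITGAV, a receptor chain for vitronectin, was at 158 and 149 in PAX6_Ta KO, 75.8 and 52 in PBX3_Cl KO and 65.4 and 65.8 CPM in Control. ITGAV rose by 1.23 ± 0.21 on the log2 scale (edgeR, adjusted p = 0.00225). PXN, the adaptor paxillin, was at 115 and 120.4 in PAX6_Ta KO, 53.8 and 74.4 in PBX3_Cl KO and 56.7 and 60.1 CPM in Control. PXN rose by 1.01 ± 0.20 on the log2 scale (edgeR, adjusted p = 0.00607). TNS4, a tensin of adhesions, had 359 and 414 reads in PAX6_Ta KO, 50 and 15 in PBX3_Cl KO and 0 and 3 in Control, a ratio to Control of 283 (95% interval 96.4 to 1375). These 3 genes were also higher than in PBX3_Cl KO (adjusted p = 0.00192, 0.0139 and 0.00144), PXN not without PAX6_Ta KO replicate 1 or 2 (0.0573 and 0.0792). The partner chain ITGB1 was not called (log2 fold change 0.26 ± 0.28).
Genes of the actin cytoskeleton and its control moved in both directions. VAV3, which activates Rac, had 261 and 186 reads in PAX6_Ta KO, 2 and 0 in PBX3_Cl KO and 0 and 0 in Control, at least 164-fold higher. ARHGDIB, a regulator of GTPases in blood cells, was at 0.396 and 0.323 in PAX6_Ta KO, 16.4 and 10.7 in PBX3_Cl KO and 24.8 and 8.99 CPM in Control. ARHGDIB fell by 5.55 ± 0.51 on the log2 scale (edgeR, adjusted p = 1.8e-05). WAS, the actin nucleator mutated in Wiskott-Aldrich syndrome, was at 1.96 and 1.75 in PAX6_Ta KO, 1.2 and 1.92 in PBX3_Cl KO and 20.4 and 13.7 CPM in Control. WAS fell by 3.20 ± 0.33 on the log2 scale (edgeR, adjusted p = 4.6e-05).

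Receptor genes of the interleukin 6 family were among the higher members of the BCR-ABL and JAK-STAT list, a grouping made after their values were seen. These cytokines share the signalling chain gp130, encoded by IL6ST, and act through JAK kinases and STAT3. LIFR, the receptor for leukaemia inhibitory factor, was at 67.2 and 66.4 in PAX6_Ta KO, 36.4 and 26.9 in PBX3_Cl KO and 1.6 and 3.33 CPM in Control. LIFR rose by 4.77 ± 0.33 on the log2 scale (edgeR, adjusted p = 2.8e-06). OSMR, the oncostatin M receptor, was at 3.52 and 3.65 in PAX6_Ta KO, 3.4 and 2.66 in PBX3_Cl KO and 0.217 and 0.614 CPM in Control. OSMR rose by 3.12 ± 0.46 on the log2 scale (edgeR, adjusted p = 0.00073). IL6ST was at 66.7 and 71.2 in PAX6_Ta KO, 65.8 and 49.6 in PBX3_Cl KO and 31.8 and 29.1 CPM in Control. IL6ST rose by 1.18 ± 0.20 on the log2 scale (edgeR, adjusted p = 0.00207). PBX3_Cl KO lay above Control in LIFR, OSMR and IL6ST too, and 1 of them, LIFR, was called between the knockouts (1.08 ± 0.28, adjusted p = 0.0251), though not without PBX3_Cl KO replicate 2 (adjusted p = 0.116). IL6R, the receptor for interleukin 6 itself, had 33 and 27 reads in PAX6_Ta KO, 54 and 57 in PBX3_Cl KO and 9 and 10 in Control. Its call, at a log2 fold change of 1.78, was lost without Control replicate 1 or 2 (adjusted p = 0.24 and 0.112) and without PAX6_Ta KO replicate 1 or 2 (0.266 and 0.0711). IL11RA, the receptor for interleukin 11, was not called (log2 fold change -0.30 ± 0.32, adjusted p = 0.689). The BCR-ABL and JAK-STAT list as a whole had 5 of 53 tested genes higher and 3 lower (8 higher with the replicate block, 1 lower leaving out Control replicate 1). SRC, a kinase, was at 20.4 and 15 in PAX6_Ta KO, 13.8 and 10.2 in PBX3_Cl KO and 4.96 and 4.61 CPM in Control. SRC rose by 1.88 ± 0.26 on the log2 scale (edgeR, adjusted p = 0.00046). SOS1, which activates Ras, was at 44.5 and 52.8 in PAX6_Ta KO, 86.3 and 95.9 in PBX3_Cl KO and 135 and 171 CPM in Control. SOS1 fell by 1.65 ± 0.21 on the log2 scale (edgeR, adjusted p = 0.0002). ABL1, BCR and STAT5A were not called (log2 fold changes -0.37, -0.42 and -0.41).

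The MAP kinase targets and feedback genes had 7 of 51 higher and 4 lower (7 lower with the replicate block, 2 lower leaving out Control replicate 1 or PAX6_Ta KO replicate 2). FOS, an immediate-early gene, was at 19.3 and 19.4 in PAX6_Ta KO, 9.66 and 6.2 in PBX3_Cl KO and 4.33 and 5.15 CPM in Control. FOS rose by 2.03 ± 0.27 on the log2 scale (edgeR, adjusted p = 0.00034). EGR1, of the same class, was at 127 and 155 in PAX6_Ta KO, 78.7 and 119.5 in PBX3_Cl KO and 45.1 and 70.2 CPM in Control. EGR1 rose by 1.29 ± 0.26 on the log2 scale (edgeR, adjusted p = 0.0062). SPRY1, a brake on receptor kinases, was at 0.146 and 0.076 in PAX6_Ta KO, 1.25 and 1.09 in PBX3_Cl KO and 1.43 and 2.18 CPM in Control. SPRY1 fell by 4.01 ± 0.53 on the log2 scale (edgeR, adjusted p = 0.00031).
In TGF-beta and BMP signalling 7 of 51 genes were higher and 3 lower (12 higher with the replicate block, 6 lower with the replicate block, 1 lower leaving out PAX6_Ta KO replicate 1, 5 lower leaving out PBX3_Cl KO replicate 1 or 2). The ligand BMP4 had 78 and 47 reads in PAX6_Ta KO, 1 and 0 in PBX3_Cl KO and 1 and 0 in Control, a ratio to Control of 137 (95% interval 24.2 to 5463), and SMAD6, an inhibitor of BMP signals, was at 35.3 and 27.9 in PAX6_Ta KO, 13.9 and 18.8 in PBX3_Cl KO and 14.9 and 9.48 CPM in Control. SMAD6 rose by 1.37 ± 0.26 on the log2 scale (edgeR, adjusted p = 0.0042). SMAD1, which carries BMP signals to the nucleus, had 3 and 0 reads in PAX6_Ta KO, 1 and 1 in PBX3_Cl KO and 397 and 240 in Control, so that Control stood 193 (95% interval 65.9 to 940.3) times above PAX6_Ta KO. SMAD1 was near 0 in both knockouts, whereas BMP4 was near 0 in PBX3_Cl KO and in Control.

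Notch and Hedgehog genes moved in both directions, 8 of 40 higher and 8 lower (5 higher leaving out Control replicate 1 or 2 or PAX6_Ta KO replicate 1 or 2, 5 lower leaving out Control replicate 1, 4 lower leaving out PAX6_Ta KO replicate 1, 3 lower leaving out PAX6_Ta KO replicate 2). SMO, the transducer of Hedgehog signals, had 152 and 95 reads in PAX6_Ta KO, 0 and 1 in PBX3_Cl KO and 1 and 1 in Control, a ratio to Control of 136 (95% interval 37.1 to 1126), and GLI3, its effector on 7p, had 13 and 21 reads in PAX6_Ta KO, 1 and 0 in PBX3_Cl KO and 0 and 0 in Control, at least 12.4-fold higher. The Notch ligand JAG1 was at 2.37 and 2.47 in PAX6_Ta KO, 0.839 and 0.633 in PBX3_Cl KO and 0.5 and 0.594 CPM in Control. JAG1 rose by 2.14 ± 0.40 on the log2 scale (edgeR, adjusted p = 0.00332). The receptor gene NOTCH1 was at 59 and 68 in PAX6_Ta KO, 97.1 and 139 in PBX3_Cl KO and 136 and 184 CPM in Control. NOTCH1 fell by 1.33 ± 0.23 on the log2 scale (edgeR, adjusted p = 0.00238).

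Interferon-stimulated genes moved in both directions. Of 55 tested, 11 were higher and 7 lower (4 lower leaving out PAX6_Ta KO replicate 1, 3 lower leaving out PAX6_Ta KO replicate 2). GBP5, a guanylate-binding protein that attacks vacuoles of pathogens, was at 16.6 and 9.48 in PAX6_Ta KO, 0.295 and 0.371 in PBX3_Cl KO and 2.35 and 0.792 CPM in Control. GBP5 rose by 3.04 ± 0.47 on the log2 scale (edgeR, adjusted p = 0.00091). GBP4, its relative, was at 11.8 and 6.93 in PAX6_Ta KO, 0.25 and 0.153 in PBX3_Cl KO and 2.32 and 1.78 CPM in Control. GBP4 rose by 2.19 ± 0.36 on the log2 scale (edgeR, adjusted p = 0.00151). Both were called lower in PBX3_Cl KO than in Control, GBP5 not without Control replicate 1 (adjusted p = 0.163) or PBX3_Cl KO replicate 1 or 2 (0.104 and 0.0869). EPSTI1 had 140 and 108 reads in PAX6_Ta KO, 0 and 0 in PBX3_Cl KO and 2 and 4 in Control, and TRIM5, which restricts retroviruses, was at 41.4 and 34.2 in PAX6_Ta KO, 22.1 and 15.8 in PBX3_Cl KO and 12 and 11.6 CPM in Control. TRIM5 rose by 1.68 ± 0.23 on the log2 scale (edgeR, adjusted p = 0.00036). IFITM3 blocks the entry of viruses, shares sequence with IFITM2, and was at 4.06 and 4.25 in PAX6_Ta KO, 1.5 and 1.29 in PBX3_Cl KO and 21.4 and 28.6 CPM in Control. IFITM3 fell by 2.59 ± 0.26 on the log2 scale (edgeR, adjusted p = 3.4e-05). IFITM2 was at 2.75 and 1.79 in PAX6_Ta KO, 2.86 and 1.99 in PBX3_Cl KO and 11.1 and 7.74 CPM in Control. IFITM2 fell by 2.05 ± 0.35 on the log2 scale (edgeR, adjusted p = 0.00184). Both genes lie on 11p, whose median was higher. IRF1, a factor that drives this programme, was not called (log2 fold change 0.09).

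Of 28 tested genes of antigen presentation and recognition, 5 were higher and 2 lower (0 lower leaving out Control replicate 2 or PAX6_Ta KO replicate 1 or 2). Of the higher ones 4, ULBP1, ULBP2, ULBP3 and PVR, encode ligands of receptors on natural killer cells, a grouping made after their values were seen. ULBP1, ULBP2 and ULBP3 bind the activating receptor NKG2D, and K562 cells are the standard target of such killing. ULBP2 was at 15 and 9 in PAX6_Ta KO, 15.4 and 7.66 in PBX3_Cl KO and 0.217 and 0.317 CPM in Control. ULBP2 rose by 5.49 ± 0.47 on the log2 scale (edgeR, adjusted p = 1.0e-05). ULBP1 was at 4.25 and 4.82 in PAX6_Ta KO, 2.84 and 2.86 in PBX3_Cl KO and 0.6 and 0.396 CPM in Control. ULBP1 rose by 3.17 ± 0.37 on the log2 scale (edgeR, adjusted p = 0.00012). ULBP3 had 24 and 22 reads in PAX6_Ta KO, 13 and 12 in PBX3_Cl KO and 0 and 0 in Control, at least 16.8-fold higher than Control. PVR, the ligand of the receptor DNAM-1, was at 16.1 and 12 in PAX6_Ta KO, 42.8 and 32.2 in PBX3_Cl KO and 3.66 and 2.93 CPM in Control. PVR rose by 2.09 ± 0.25 on the log2 scale (edgeR, adjusted p = 0.00015). CD276, an immune checkpoint molecule, was at 11.1 and 8.41 in PAX6_Ta KO, 6.33 and 5.92 in PBX3_Cl KO and 1.92 and 3.01 CPM in Control. CD276 rose by 1.98 ± 0.31 on the log2 scale (edgeR, adjusted p = 0.00104). In these 5 genes PBX3_Cl KO lay above Control as well, and PVR was higher there than in PAX6_Ta KO (-1.42 ± 0.24, adjusted p = 0.00195). TAP2, which carries peptides to be presented, was one of the lower genes (log2 fold change -0.97), and its call was lost without Control replicate 2 (adjusted p = 0.0678) and without PAX6_Ta KO replicate 1 or 2 (0.109 and 0.0521).

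Transporters and nuclear receptors gave several large single differences. ABCG2 and ABCB1 both pump drugs out of cells, and they went opposite ways: ABCG2 was at 10.5 and 9.17 in PAX6_Ta KO, 9.66 and 6.22 in PBX3_Cl KO and 0.949 and 1.19 CPM in Control. ABCG2 rose by 3.20 ± 0.33 on the log2 scale (edgeR, adjusted p = 4.1e-05). ABCB1 was at 0.645 and 0.285 in PAX6_Ta KO, 42.6 and 28.7 in PBX3_Cl KO and 19.5 and 6.26 CPM in Control. ABCB1 fell by 4.80 ± 0.55 on the log2 scale (edgeR, adjusted p = 9.9e-05). ABCB1 was high in PBX3_Cl KO (-6.27 ± 0.57, adjusted p = 1.6e-05 between the knockouts). SLCO2B1, an uptake carrier of organic anions, was at 53.2 and 46.7 in PAX6_Ta KO, 24.1 and 20.2 in PBX3_Cl KO and 7.85 and 8.61 CPM in Control. SLCO2B1 rose by 2.60 ± 0.21 on the log2 scale (edgeR, adjusted p = 7.3e-06). In the whole list 6 of 41 were higher and 4 lower (3 higher leaving out Control replicate 2 or PAX6_Ta KO replicate 1, 2 lower leaving out PAX6_Ta KO replicate 1).
Of 46 clock and nuclear receptor genes 9 were higher and 6 lower (3 lower leaving out PAX6_Ta KO replicate 1, 2 lower leaving out PAX6_Ta KO replicate 2). RARB, a retinoic acid receptor, was at 8.45 and 7.05 in PAX6_Ta KO, 1.2 and 0.982 in PBX3_Cl KO and 0.966 and 1.19 CPM in Control. RARB rose by 2.85 ± 0.33 on the log2 scale (edgeR, adjusted p = 0.00012). VDR, the vitamin D receptor, was at 5.98 and 5.79 in PAX6_Ta KO, 29.9 and 25.9 in PBX3_Cl KO and 1.98 and 2 CPM in Control. VDR rose by 1.56 ± 0.23 on the log2 scale (edgeR, adjusted p = 0.00082). THRB, a thyroid hormone receptor, was lower, at 34.9 and 34.9 in PAX6_Ta KO, 64.1 and 58.4 in PBX3_Cl KO and 82.1 and 82.1 CPM in Control. THRB fell by 1.23 ± 0.18 on the log2 scale (edgeR, adjusted p = 0.00075). RARB was high in PAX6_Ta KO alone, whereas VDR was higher still in PBX3_Cl KO (-2.25 ± 0.23, adjusted p = 4.3e-05).

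Lysosomal and lipid genes differed in part. Of 76 lysosome and autophagy genes 10 were higher and 2 lower (6 higher with the arm medians taken out, 5 higher leaving out Control replicate 2, 4 higher leaving out PAX6_Ta KO replicate 1, 0 lower leaving out Control replicate 2 or PAX6_Ta KO replicate 1 or 2 and with the arm medians taken out, 1 lower leaving out Control replicate 1). SMPD1, acid sphingomyelinase, was at 36.9 and 29.1 in PAX6_Ta KO, 34.5 and 29.8 in PBX3_Cl KO and 12.8 and 8.97 CPM in Control. SMPD1 rose by 1.60 ± 0.23 on the log2 scale (edgeR, adjusted p = 0.00068). SGSH, a sulphatase of heparan breakdown, was at 37 and 33.6 in PAX6_Ta KO, 27.6 and 25 in PBX3_Cl KO and 16.9 and 14.8 CPM in Control. SGSH rose by 1.16 ± 0.20 on the log2 scale (edgeR, adjusted p = 0.00202). ELOVL7, which lengthens fatty acids, was at 43 and 50.5 in PAX6_Ta KO, 7.76 and 4.93 in PBX3_Cl KO and 3.3 and 2.46 CPM in Control. ELOVL7 rose by 4.02 ± 0.28 on the log2 scale (edgeR, adjusted p = 3.0e-06). ELOVL6 was at 58.1 and 53.1 in PAX6_Ta KO, 148 and 85.2 in PBX3_Cl KO and 184 and 169 CPM in Control. ELOVL6 fell by 1.67 ± 0.25 on the log2 scale (edgeR, adjusted p = 0.00079). The zinc and manganese importer SLC39A8 was at 44.7 and 35.3 in PAX6_Ta KO, 130.5 and 111 in PBX3_Cl KO and 144 and 145 CPM in Control. SLC39A8 fell by 1.86 ± 0.20 on the log2 scale (edgeR, adjusted p = 7.4e-05). PDK2, a brake on the entry of pyruvate into mitochondria, was at 4.54 and 3.57 in PAX6_Ta KO, 1.45 and 1.07 in PBX3_Cl KO and 0.0666 and 0.0198 CPM in Control. PDK2 rose by 6.42 ± 0.56 on the log2 scale (edgeR, adjusted p = 1.2e-05).

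Few genes of the respiratory chain, the ribosome, the proteasome and the mitochondrial genome were called. Of 78 nuclear-encoded respiratory chain genes 1 was higher and 0 lower by edgeR (6 and 2 at p under 0.05 before adjustment, 1 and 0 by DESeq2) (6 higher with the replicate block, 0 higher leaving out Control replicate 1 or 2 or PAX6_Ta KO replicate 1 and with the arm medians taken out, 2 higher leaving out PBX3_Cl KO replicate 1 or 2, 1 lower with the replicate block). Cytosolic ribosomal proteins had 1 of 78 higher and 0 lower (3 and 1 unadjusted, 3 and 0 by DESeq2) (3 higher leaving out PBX3_Cl KO replicate 1 or 2 and with the replicate block, 0 higher leaving out Control replicate 1 or PAX6_Ta KO replicate 1 and with the arm medians taken out, 1 lower leaving out PBX3_Cl KO replicate 1 or 2). The proteasome had 0 of 41 called (1 higher and 2 lower unadjusted, 0 by DESeq2) (1 higher leaving out Control replicate 1 or PBX3_Cl KO replicate 1 or 2 and with the replicate block, 2 lower leaving out PBX3_Cl KO replicate 1 or 2 and with the replicate block), and the 15 genes of the mitochondrial genome 0 (0 unadjusted, 0 by DESeq2) (1 lower leaving out Control replicate 2). The medians of these 4 lists lay between -0.02 and 0.10. For mitosis 1 of 81 was higher and 4 (4.94%) lower (4 higher leaving out PBX3_Cl KO replicate 2 and with the replicate block, 3 higher leaving out PBX3_Cl KO replicate 1, 10 lower with the replicate block, 0 lower leaving out PAX6_Ta KO replicate 1 or 2 and with the arm medians taken out, 1 lower leaving out Control replicate 1, 2 lower leaving out Control replicate 2, 9 lower leaving out PBX3_Cl KO replicate 1 or 2), a share of lower genes near that of all genes. For ribosome biogenesis 0 of 52 were higher by edgeR (1 at p under 0.05 before adjustment, 0 with DESeq2) and 2 lower (1 higher with the replicate block, 5 lower with the replicate block, 1 lower leaving out Control replicate 1 or PAX6_Ta KO replicate 2 and with the arm medians taken out, 0 lower leaving out Control replicate 2 or PAX6_Ta KO replicate 1, 4 lower leaving out PBX3_Cl KO replicate 1 or 2), with a median of -0.21. For splicing proteins 0 of 72 were higher by edgeR (0 at p under 0.05 before adjustment, 0 with DESeq2) and 3 lower (1 higher leaving out Control replicate 2, 7 lower with the replicate block, 1 lower leaving out PAX6_Ta KO replicate 1 or 2 and with the arm medians taken out, 8 lower leaving out PBX3_Cl KO replicate 1 or 2). For DNA replication 1 of 59 was higher and 1 lower (2 higher with the replicate block, 0 higher leaving out Control replicate 1 or PAX6_Ta KO replicate 1 or 2 and with the arm medians taken out, 5 lower leaving out PBX3_Cl KO replicate 1 or 2 and with the replicate block, 0 lower leaving out Control replicate 1 or 2 or PAX6_Ta KO replicate 1 or 2 and with the arm medians taken out).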

How the data were processed

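RNA came from K562 lines, by the ISOLATE II kit. Libraries were of the Collibri Stranded type, read on a NovaSeq instrument. The authors trimmed reads with Cutadapt 3.4, mapped the reads with STAR on GRCh37, annotation release 75, and deposited raw counts per gene. The STAR version and strand option were not given in the sources used here. In the count table there are 52088 entries, and 4 of its columns match no sample described here and were not used. Separate deposited tables hold the authors' log2 fold changes and p-values of each knockout and were not used.

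Counts were analysed with edgeR 4.0.16 in R 4.3.3 (limma 3.58.1, DESeq2 1.42.0). Genes were kept by filterByExpr with a minimum count of 10, which left 20746, libraries were scaled by TMM, and the 3 groups were fitted together by the quasi-likelihood method, with Benjamini-Hochberg adjustment over all genes tested. Depth per library was 45912044 to 60908470 counts. A difference against a group with 0 reads was given as a lower bound, taking 3 counts summed over that group as its floor, and against 1 to 3 reads as a ratio with an exact 95% interval, both of which cover counting error alone. Genes were placed with GENCODE v44 lifted to GRCh37. The fit was tested on simulated data.

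Genes named are the 12 per direction with the smallest p among those called in each leave-one-out fit and with the replicate block, and up to 4 per list and direction. The members and the 57 lists were chosen with earlier results of these data known. Alternatives were RLE and upper-quartile factors, no filter, a minimum count of 50, DESeq2, the 2 compared groups alone, the replicate number as a block, arm medians taken out, and each library left out. The labels number the replicates in each group, and differences between replicates correlated across groups (0.389 for PAX6_Ta KO and Control, 0.379 for PAX6_Ta KO and PBX3_Cl KO and 0.21 for PBX3_Cl KO and Control, across genes, which are not independent). The fit with the replicate block therefore pairs the samples by number. The main fit, which gave the calls, leaves this pairing out. With the block 2028 genes were higher and 1520 lower in PAX6_Ta KO than in Control. Results for a few genes and 1 list are not reported here.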

Additional observations from a re-analysis of the deposited data

Results flagged for a closer look

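For 27 of the 428 named genes, a selection and no tally of all called genes, PAX6_Ta KO and PBX3_Cl KO were called in opposite directions against the shared Control, and the direct test between the knockouts was called as well (edgeR). The values are log2 differences of PAX6_Ta KO from PBX3_Cl KO, with n = 2 libraries each, and those of genes with few reads on one side depend on the prior count of the fit and set no bound. PAX6_Ta KO lay above Control and PBX3_Cl KO below it for the actin and membrane genes COBLL1 (7.40) and EPB41L3 (9.28), the docking protein gene EFS (9.17), the receptor gene ADGRA3 (11.36) and LIN28A (8.32). The same order was found for the imprinted genes H19 (6.96) and DLK1 (7.77), the matrix genes LAMB1 (4.10), COL4A2 (3.78) and SERPINF1 (2.68), the guidance and contact genes PLXNA2 (5.17) and PCDH7 (7.49), the stress genes SESN3 (2.38) and NDRG1 (2.98), and the interferon-stimulated genes GBP5 (5.28) and GBP4 (5.53). PAX6_Ta KO lay below Control and PBX3_Cl KO above it for TBC1D4 (-6.85), MAGI1 (-3.98), FERMT3 (-1.62), COL4A5 (-4.46), EPHB6 (-3.48), CD80 (-3.48), MAML2 (-2.29), FAS (-9.18), BTG1 (-1.93), SAMD9 (-3.12) and RHOH (-3.86).

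The direct test between the knockouts held for the 27 genes under each alternative, and for 14 of them both calls against Control held as well. The genes were picked by this direct test and by their opposite calls, so a direct difference that holds is no further support. The call of PAX6_Ta KO against Control was lost by 6 genes. FERMT3 lost it without Control replicate 1 or 2 (adjusted p = 0.32 and 0.0533), without PAX6_Ta KO replicate 1 or 2 (0.109 and 0.3) and with RLE factors (0.0501). FAS lost it without Control replicate 2 (0.119), PAX6_Ta KO replicate 1 or 2 (0.152 and 0.151) or PBX3_Cl KO replicate 1 (0.0523), with the replicate block (0.0618), with the arm medians taken out (0.0585) and with upper-quartile factors (0.058). CD80 lost it leaving out Control replicate 2 (0.0672) or PAX6_Ta KO replicate 1 or 2 (0.13 and 0.0725), SERPINF1 leaving out Control replicate 2 (0.127) or PAX6_Ta KO replicate 1 (0.263), SAMD9 leaving out Control replicate 1 (0.183) or PAX6_Ta KO replicate 2 (0.0697), and PLXNA2 without Control replicate 2 (0.0646). The call of PBX3_Cl KO against Control was lost by 10 genes when 1 library was left out. Without Control replicate 1 it was lost by COBLL1 (0.383), EFS (0.0958), MAGI1 (0.0951), FERMT3 (0.0511), CD80 (0.0645), SESN3 (0.0515), BTG1 (0.0998), NDRG1 (0.0611) and GBP5 (0.163), and without Control replicate 2 by EFS (0.17), MAGI1 (0.237), FERMT3 (0.292), BTG1 (0.28) and SAMD9 (0.0975). Without PBX3_Cl KO replicate 1 it was lost by COBLL1 (0.126), EFS (0.159), MAGI1 (0.0738), BTG1 (0.099), GBP5 (0.104) and SAMD9 (0.0858), and without PBX3_Cl KO replicate 2 by COBLL1 (0.0531), EFS (0.0825), NDRG1 (0.103) and GBP5 (0.0869). EFS and BTG1 lost it without either PAX6_Ta KO library too (0.0503 to 0.0712), and EFS with DESeq2 (0.118). With the arm medians taken out it was lost by EFS (0.0569) and SAMD9 (0.0644).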

How the results depend on the processing

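With 2 libraries per group, the counts depended on which libraries entered and on whether the spread was shared. The replicate block gave 2028 genes higher in PAX6_Ta KO than in Control. Genes higher in PAX6_Ta KO than in Control numbered 1496, and 927 to 1939 with a library left out. Genes lower numbered 874, and 427 to 1429 with a library left out, 1317 with the 2 groups alone and 1520 with the replicate block. Against PBX3_Cl KO, 1091 genes were higher and 1392 lower. A library left out gave 662 to 1425 higher and 606 to 1535 lower, and the replicate block 1672 and 2205. With the arm medians taken out 1135 were higher and 881 lower, which turns the balance of the directions round. The cause was not tested.

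Of 428 named genes, refitted under the alternatives in which they were tested (5939 values), no value changed sign, 5251 stayed past the threshold and 688 did not, and 220 genes lost no call. Calls were lost most often without PAX6_Ta KO replicate 1 (162 genes) or 2 (126) and without Control replicate 1 (107) or 2 (121), against 80 with the arm medians taken out, 26 with upper-quartile factors, 19 with RLE, 17 with a minimum count of 50, 15 with DESeq2 and 1 with the replicate block. Genes with a few reads in Control have wide ratios, and depth limits what can be said of them.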
